A study of Coprinopsis cinerea AmutBmut pab1-1 with 7 samples.

Results

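Carbon catabolite repression is the process by which fungi keep the genes for the use of complex carbon sources at a low level while a preferred sugar such as glucose is at hand. In filamentous fungi the zinc finger repressor Cre1, called CreA in aspergilli, is its best known regulator, and plant cell wall-degrading enzymes are its best known targets. Cellulases, hemicellulases and pectinases are needed chiefly when a fungus feeds on plant material, so in mycelium on glucose their transcripts are usually few. Coprinopsis cinerea, an inky cap mushroom, feeds on plant litter and dung.

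The 148 genes described here were already expressed in the wild type and were higher in both cre1 mutant strains. A gene was taken as a member where each wild-type library held a count of at least 10 and where the lowest of the 4 mutant libraries, in CPM (counts scaled to a common library size), was at least 2 times the highest of the 3 wild-type libraries. Of the 14242 genes of the table, 9439 held the minimum count and 157 of these also reached the ratio, which is 1.66% of the 9439. A list of 20 genes named in the rule was left out, of which 9 reached the ratio, and 148 remained. The members were therefore chosen by the values of each mutant against the wild type, and these are given as a description, with no test. That each member has counts in every wild-type library, and that no mutant library overlaps a wild-type library, follows from the rule and is no check of the label.

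Vegetative mycelium of 3 groups was profiled by Quant-Seq, in which polyadenylated transcripts are sequenced from their 3′ ends. These were the control strain C. cinerea AmutBmut pab1-1 (wild type, 3 libraries) and the strains labelled Δcre1-43 and Δcre1-91 (2 libraries each), all grown in the dark for 84 h at 28 °C on cellophane over YMG medium containing 0.2% glucose. In the mutants cre1 was to be replaced by a pab1 marker cassette with the help of Cas9, so they also carry a working pab1 gene, and each strain is a single transformant line. The labels do not say whether the libraries of a strain came from separate cultures, so the spread between them may be partly technical.

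The wild-type libraries held 10196878 to 10784958 assigned counts and the mutant libraries 6232853 to 8514379, so that every mutant library was shallower than every wild-type library and a count of 3 equalled 0.278 to 0.481 CPM. Every library held reads of cre1, at 8.73, 7.89 and 11.3 CPM in the wild type, 8.72 and 8.16 CPM under the label Δcre1-43 and 8.51 and 6.26 CPM under the label Δcre1-91. The mutant levels overlap the wild-type range, so cre1 did not check the labels, and the mutant libraries are called by their labels throughout. The study reported PCR and DNA sequencing that placed the marker cassette at the cre1 locus in both strains. It also reported that a small internal cre1 fragment could still be amplified from both after many PCR cycles.

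Together the members took 0.472 to 0.508% of the assigned counts of each wild-type library. This share was 1.97 and 2.09% under the label Δcre1-43 and 2.16 and 2.09% under the label Δcre1-91. In whole mycelium a higher level per cell and more cells that express a gene cannot be told apart. Their levels in the wild type were low, with a median of 5.30 CPM against 20.5 CPM for all genes with the minimum count, and 72 of the 148 had a wild-type mean under 5 CPM. Only 7 had a wild-type mean over 100 CPM. The fold over the wild-type mean had a median of 4.01 (quartiles 3.29 and 6.62, range 2.16 to 100.3) under the label Δcre1-43 and of 4.25 (quartiles 3.41 and 6.75, range 2.17 to 67.4) under the label Δcre1-91. On the log2 scale the fitted medians of the members were 2.00 and 2.09, beside medians of -0.04 and -0.04 over all genes with the minimum count. All 148 members were called higher by edgeR in each strain, where 4.82% of all genes were called higher under the label Δcre1-43 and 4.97% under the label Δcre1-91 (adjusted p of at most 0.05 and at least a 2-fold difference). The rule used these contrasts, so nothing is read from that count.

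**Figure D1:**
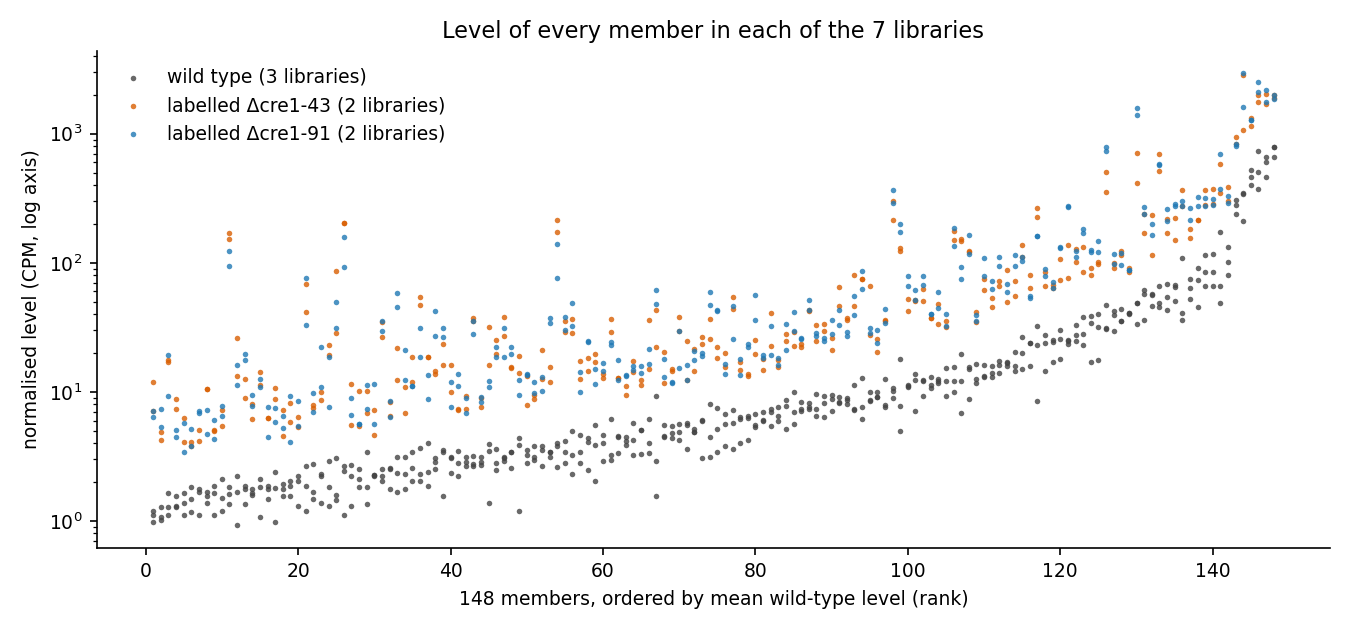
Level of each of the 148 members in each of the 7 libraries, in CPM on a log axis, with the members ordered by their mean in the wild type; every point is a library. The 4 mutant points of a member lie above its 3 wild-type points by the rule, and the gap varies from about 2-fold to over 50-fold.

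Most members lay close to the limit. The ratio of the lowest mutant library to the highest wild-type library had a median of 2.63 and quartiles of 2.22 and 3.77. It was at least 3 for 54 members, at least 5 for 24 and at least 10 for 6. Just inside the limit were 356303 (ratio 2.002), a predicted transporter of the major facilitator superfamily, 32766 (2.002) and 522447 (2.01). The member 32766 had 57.4, 46.5 and 56.0 CPM in the wild type, 236 and 115 CPM under the label Δcre1-43 and 164 and 199 CPM under the label Δcre1-91. Just outside were 476314 (1.998), 359285 (1.996) and 166270 (1.99). The last had 129.7, 155 and 137 CPM in the wild type and 308 to 491 CPM in the 4 mutant libraries, and its level in the mutants was well above that of most members. The lowest mutant library was the first labelled Δcre1-43 for 53 members, the second for 36, the first labelled Δcre1-91 for 22 and the second for 37. These are 35.8, 24.3, 14.9 and 25% of the members, against 25.4, 27.0, 23.8 and 23.8% of all genes with the minimum count.

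The annotation lists of the study and its InterPro table gave a role to 48 of the 148 members. Of these, 22 were plant cell wall enzymes, 5 fungal cell wall enzymes, 2 transcription factors, 7 transporters and 12 had another InterPro description. The lists of cell wall enzymes, transcription factors and transporters were drawn by the study from genes that changed in these same libraries, so their directions are not independent evidence. The InterPro table was held only in part, and the other 100 members, which carried 85.8% of the summed mutant CPM of the members, are given by protein ID alone. The median fold over the wild type was 8.22 and 7.29 for the plant cell wall enzymes, in the order Δcre1-43 and Δcre1-91, and 3.71 and 3.86 for the members with no description here.

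**Figure D2:**
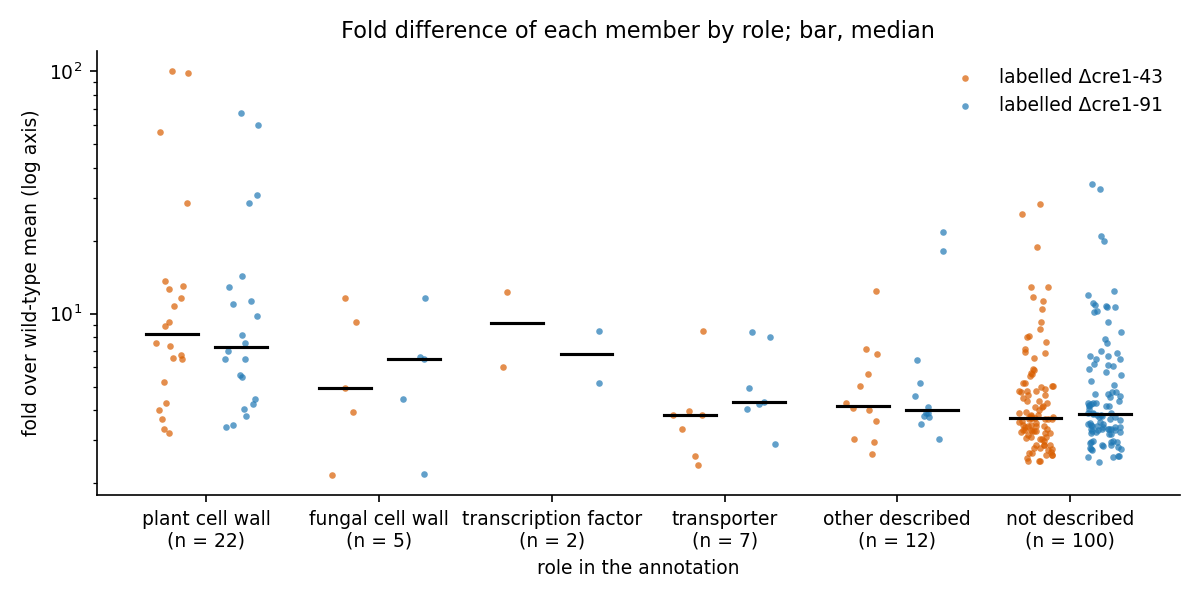
Fold of each member over its wild-type mean, on a log axis, by role in the annotation; orange points are the mean of the libraries labelled Δcre1-43, blue points those labelled Δcre1-91, and bars are medians. The plant cell wall enzymes have medians of 8.22 and 7.29, and the 100 members not described have medians of 3.71 and 3.86.

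Cellulose-active enzymes led the members by ratio, with the undescribed 442230 among them in the order. The 12 members assigned to cellulose had a median fold of 11.7 under the label Δcre1-43 and 10.4 under the label Δcre1-91. Of the 6 members with the largest ratios, 5 were on this list. Enzymes of family GH6 are cellobiohydrolases or endoglucanases, those of GH7 are mostly cellobiohydrolases that work along the cellulose chain, and GH3 holds β-glucosidases.

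The GH6 member 546855 had the largest ratio. It had 1.85, 1.36 and 1.61 CPM in the wild type, 170.5 and 152 CPM under the label Δcre1-43 and 122 and 93.8 CPM under the label Δcre1-91. In the first strain it was 100.3-fold and in the second 67.4-fold the wild-type mean, with log2 fold changes of 6.64 and 6.07 (standard error 0.22 and 0.22). Its wild-type counts were only 20, 14 and 17.33, so the fold rests on few wild-type reads, and a gene model on the other strand overlaps it (scaffold 360, 10713 to 12542, plus strand).

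A further GH6 member, 437020, had 2.68, 2.44 and 1.11 CPM in the wild type, 204 and 205 CPM under the label Δcre1-43 and 158 and 92.3 CPM under the label Δcre1-91. Another, 491915, had 1.20, 2.65 and 1.85 CPM, 41.3 and 67.9 CPM and 76.0 and 33.2 CPM in the same order. All 3 were under 3 CPM in each wild-type library, while the mutant levels of 491915 were lower and spread more between the libraries of a strain. The only GH7 member, 462750, had 3.79, 2.63 and 3.98 CPM in the wild type, 215 and 175 CPM under the label Δcre1-43 and 139 and 75.7 CPM under the label Δcre1-91. For 546855, 437020 and 462750 both libraries labelled Δcre1-43 lay above both labelled Δcre1-91. The differences were 0.57 (standard error 0.19), 0.71 (0.25) and 0.86 (0.24) on the log2 scale, and none passed edgeR's test after adjustment over all genes (adjusted p = 0.222, 0.251 and 0.130). These are 3 of the 12 cellulose-assigned members, and for 2 of the 12 Δcre1-91 lay wholly above Δcre1-43. Over all genes with the minimum count, Δcre1-43 lay wholly above for 20% and Δcre1-91 for 21.4%.

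The GH3 member 444212, which the list assigns to cellulose, pectin and hemicellulose, had 2.52, 2.24 and 2.04 CPM in the wild type, 26.8 and 34.9 CPM under the label Δcre1-43 and 35.7 and 29.4 CPM under the label Δcre1-91. Here the mutant strains overlapped, and the fold was 13.6 and 14.4. The other cellulose-assigned members had folds between 3.337 and 12.6 under the label Δcre1-43 and between 4.25 and 10.99 under the label Δcre1-91. They include 455231, a lytic polysaccharide monooxygenase of family AA9, an enzyme that cuts crystalline cellulose by oxidation, and 5 members with the cellulose-binding module CBM1, 455231 among them.

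**Figure D3:**
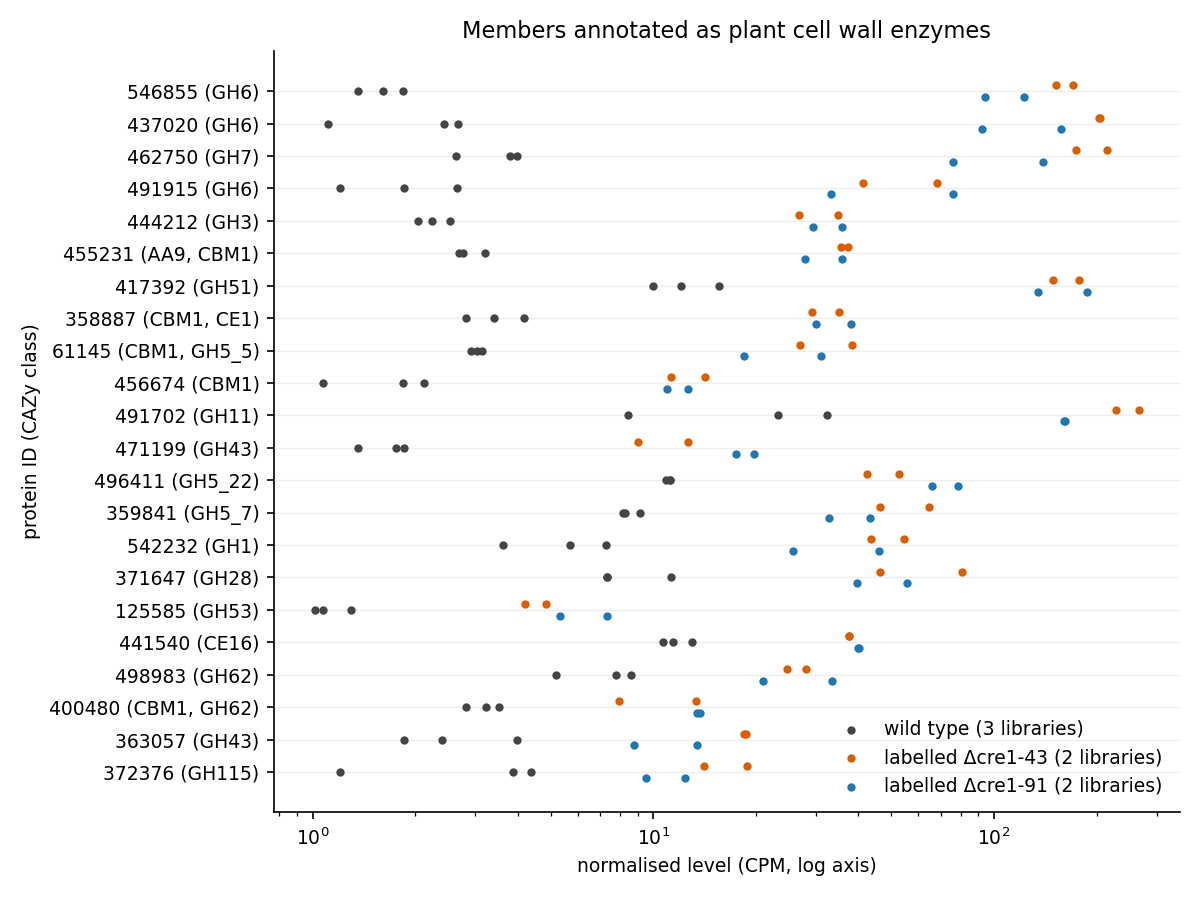
Level of the 22 members listed as plant cell wall enzymes in each library, in CPM on a log axis, ordered from the top by the ratio of the lowest mutant to the highest wild-type library; labels give the protein ID and the CAZy class. The GH6 and GH7 members at the top stand under 4 CPM in the wild type and reach 33.2 to 215 CPM in the mutants, while those at the bottom differ by less.

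Hemicellulose-active enzymes had smaller ratios. The 11 members on this list had a median fold of 6.76 under the label Δcre1-43 and 6.49 under the label Δcre1-91. The GH51 member 417392, of a family of α-arabinofuranosidases that trim xylan and pectin side chains, had 9.97, 15.6 and 12.04 CPM in the wild type, 149 and 177 CPM under the label Δcre1-43 and 187 and 135 CPM under the label Δcre1-91. The strains overlapped, and the fold was 13.0 and 12.8. The GH11 member 491702, of a family of endoxylanases, varied in the wild type and had 32.3, 23.3 and 8.43 CPM there, 266 and 228 CPM under the label Δcre1-43 and 161 and 161 CPM under the label Δcre1-91. Its wild-type libraries spanned almost 4-fold, more than those of either mutant strain.

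The member 358887, with a CBM1 module and an esterase domain of family CE1, had 3.42, 2.82 and 4.17 CPM in the wild type and 29.2 to 38.1 CPM in the 4 mutant libraries. The GH43 member 471199 had 1.75, 1.36 and 1.85 CPM in the wild type, 9.02 and 12.7 CPM under the label Δcre1-43 and 19.8 and 17.5 CPM under the label Δcre1-91. Both libraries of the second strain were above both of the first. The difference, first minus second, was -0.78 on the log2 scale (standard error 0.28) and did not pass after adjustment (edgeR adjusted p = 0.268).

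Pectin-assigned members numbered 6, with median folds of 8.11 and 6.05. Besides 444212 and 417392 they include 542232 (GH1, a β-glucosidase family), which had 7.25, 5.70 and 3.61 CPM in the wild type, 43.5 and 54.4 CPM under the label Δcre1-43 and 46.0 and 25.6 CPM under the label Δcre1-91. The GH28 member 371647, of the polygalacturonase family, had 7.30, 11.3 and 7.32 CPM, 80.6 and 46.3 CPM and 39.5 and 55.5 CPM in the same order. In both, the lowest mutant library was about 3.5 times the highest wild-type library. The GH53 member 125585, of a family of endo-galactanases, was the least abundant, with 1.29, 1.07 and 1.02 CPM in the wild type and 4.21 to 7.32 CPM in the 4 mutant libraries, and its wild-type counts of 14, 11 and 11 were close to the minimum of the rule.

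The 5 fungal cell wall members covered a wide range. Chitinases of family GH18 and hexosaminidases of GH20 act on chitin, a structural polymer of the cell wall of the fungus itself. The GH18 member 470416 had 2.31, 4.97 and 3.24 CPM in the wild type, 36.7 and 28.3 CPM under the label Δcre1-43 and 48.5 and 32.6 CPM under the label Δcre1-91, a fold of 9.27 and 11.6. The GH20 member 227722 was far more even, with 41.1, 39.8 and 40.6 CPM, 90.6 and 84.1 CPM and 87.6 and 88.3 CPM in the same order, and its fold of 2.16 and 2.17 was the smallest of all members in both strains. The oxidoreductases 544684 and 377030 (AA3_2) had folds of 4.93 and 6.66 and of 3.95 and 4.44. The AA3_3 member 492531, of the alcohol oxidase family, had 12.1, 6.92 and 19.8 CPM in the wild type, 147 and 153 CPM under the label Δcre1-43 and 93.4 and 75.6 CPM under the label Δcre1-91. Both libraries of the first strain lay above both of the second, with a difference of 0.82 on the log2 scale (standard error 0.28, edgeR adjusted p = 0.245).

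Among the members were 2 predicted transcription factors. The member 360628 belongs to the Gti1/Pac2 family, which in yeasts and moulds holds regulators of the switch between growth forms. It had 1.66, 2.24 and 0.927 CPM in the wild type, 26.3 and 13.3 CPM under the label Δcre1-43 and 11.3 and 16.04 CPM under the label Δcre1-91. Its wild-type counts were 18, 23 and 10, and the first library labelled Δcre1-43 stood apart from the other 3 mutant libraries. The member 495201, with a fungal Zn2-C6 DNA-binding domain, had 26.6, 20.2 and 15.1 CPM in the wild type, 112 and 137 CPM under the label Δcre1-43 and 103 and 110.2 CPM under the label Δcre1-91. Both libraries of the first strain lay above both of the second, with a difference of 0.22 on the log2 scale (standard error 0.22, edgeR adjusted p = 0.818).

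The 7 transporters had median folds of 3.80 and 4.32. The largest ratio belonged to 496081, a predicted sugar transporter of the major facilitator superfamily, a large group of carriers driven by ion gradients. It had 7.57, 12.9 and 6.12 CPM in the wild type, 74.6 and 74.9 CPM under the label Δcre1-43 and 86.0 and 63.0 CPM under the label Δcre1-91, a fold of 8.45 and 8.42. The ABC transporter 447110, of a class driven by ATP, was more abundant, with 36.0, 57.5 and 61.1 CPM, 237 and 171 CPM and 238 and 273 CPM in the same order. Folds were smaller for the major facilitator 125252, at 3.36 and 4.32, and for the predicted sugar transporter 502428, at 2.58 and 2.91.

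The EamA-domain transporter 445110 had 3.42, 5.16 and 7.51 CPM in the wild type, 22.4 and 18.4 CPM under the label Δcre1-43 and 42.2 and 43.5 CPM under the label Δcre1-91. In the first strain it was 3.80-fold and in the second 7.99-fold the wild-type mean, and the difference of -1.08 on the log2 scale (first minus second, standard error 0.27) did not pass after adjustment (edgeR adjusted p = 0.0868). Of the 7 transporters, 6 had the higher fitted level under the label Δcre1-91, but none was called between the strains. Of all 148 members, 83 had the higher mean CPM under that label. Whether the transporters differ from the rest was not tested.

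Members with another InterPro description include 277380, which has a starch-binding CBM21 module and an α-amylase domain. It had 18.1, 4.97 and 7.78 CPM in the wild type, 124 and 131 CPM under the label Δcre1-43 and 200.1 and 174 CPM under the label Δcre1-91, and its first wild-type library was well above the other 2. The small heat shock protein 367102, a chaperone that holds unfolded proteins, had 9.33, 12.1 and 12.3 CPM, 50.2 and 63.1 CPM and 66.8 and 78.4 CPM in the same order. A carboxylesterase, 14442, had folds of 4.27 and 5.17 from a wild-type mean of 1.66 CPM. The metallopeptidase 117152 (family M43) had folds of 4.02 and 4.11. Others were a sirtuin (361504), a D-amino-acid oxidase (276942), a signaling mucin of the MSB2 type (197636) and a RING finger protein (361902).

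Genes with no description here were the most abundant members. Quant-Seq counts each transcript at its 3′ end, so CPM was not divided by gene length. The 6 members with the highest mean over the mutant libraries were 559348, 441209, 406855, 469868, 411888 and 440563, none of them described, and they held 49.2% of the summed mutant CPM of all members. The first, 559348, had 348, 211 and 341 CPM in the wild type, 1069.5 and 2873 CPM under the label Δcre1-43 and 2936 and 1616 CPM under the label Δcre1-91. Its replicates differed by 2.69-fold and 1.82-fold within the strains, among the widest spreads of any member. The member 406855 was steadier, with 786, 788 and 659 CPM, 1883 and 2007 CPM and 2002 and 1848 CPM in the same order, and a fold of 2.61 and 2.59.

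Of these abundant members, 441209 had 375, 729.7 and 509 CPM in the wild type, 2001 and 1750.3 CPM under the label Δcre1-43 and 2093 and 2495 CPM under the label Δcre1-91. The coding length of 441209 is 417 bases and that of 411888 225 bases, both short. The members 469868 and 411888 had folds of 3.26 and 3.46 and of 2.68 and 2.76. The undescribed member with the largest ratio was 442230, which had 8.96, 10.2 and 10.7 CPM in the wild type, 215 and 298 CPM under the label Δcre1-43 and 364 and 289 CPM under the label Δcre1-91. With a coding length of 3468 bases in 22 exons it is one of the longer models, and its fold was 25.8 and 32.8.

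How far the replicates of a strain agreed varied among members. The higher library was at least 2-fold the lower for 7 members under the label Δcre1-43 and for 6 under the label Δcre1-91, with medians of 1.25 and 1.21. These are 4.73% and 4.05% of the members, against 7.84% and 6.25% of all genes with the minimum count. The rule was set on the lowest mutant library, so it can leave out genes with a low replicate. Nothing is read from these smaller shares. The widest relative spreads belonged to 559306, 559348 and 497939. The member 559306 had 3.05, 1.46 and 1.58 CPM in the wild type, 28.6 and 85.9 CPM under the label Δcre1-43 and 49.7 and 31.3 CPM under the label Δcre1-91. The member 497939 had 1.85, 2.92 and 1.30 CPM, 19.2 and 23.1 CPM and 18.7 and 7.67 CPM in the same order. Under the label Δcre1-43 the libraries of 559306 differed by 3.01-fold, and under the label Δcre1-91 those of 497939 by 2.44-fold, while the rule still held for the lower value. In the wild type the highest library was at least 2-fold the lowest for 28 members (18.9%), against 5.76% of all genes with the minimum count. The members also had lower wild-type levels than those genes (medians of 5.30 and 20.5 CPM). Whether level accounts for the wider spread was not tested.

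The comparison of the mutant strains with each other is the contrast that the rule did not use. Of the 148 members, edgeR called 5, all higher under the label Δcre1-91, where 0.0702% of all 14242 genes were called in that direction and 0.246% in either. No member was called higher under the label Δcre1-43 by edgeR, a call made for 0.176% of all genes, although 12 members reached an unadjusted p under 0.05. DESeq2 called 7 members and limma voom 0 (34 at an unadjusted p under 0.05), none of them higher under the label Δcre1-43. EdgeR called 1 member higher there with library sizes left unscaled, where only the groups compared were fitted, with the replicate number as a block after exchanging numbers 1 and 2 in one strain, and without wild-type library 3. In all, 36 members (24.3%) reached an unadjusted p under 0.05, beside 11.2% of all genes. Every member held the minimum count, as did only 9439 of the 14242 genes. The shares called or under 0.05 were not computed over those 9439 alone, so they are not a like background. The fitted difference ran from -1.59 to 1.05 on the log2 scale (first strain minus second) with a median standard error of 0.26, and 139 members lay within 1 log2 unit of equality.

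The 5 called members depended on single libraries. Without the first library labelled Δcre1-43, either library labelled Δcre1-91 or the second wild-type library, edgeR called 0 members. Without the second library labelled Δcre1-43 it called 2, and without wild-type library 3 it called 8. At an unadjusted p under 0.05 the number of members ran from 22 to 41 over these fits.

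Both libraries labelled Δcre1-91 lay above both labelled Δcre1-43 for 46 members (31.1%), against 21.4% of all genes with the minimum count. The reverse held for 24 members (16.2%), against 20% of those genes. For the other 78 members the strains overlapped. Of the 22 plant cell wall enzymes, Δcre1-43 lay wholly above in 7 and Δcre1-91 in 5. These are few genes to set beside the 20% and 21.4% of all genes with the minimum count. Their median difference was 0.16 on the log2 scale as the first minus the second. Among the other 126 members these counts were 17 and 41, and the median was -0.10. Whether the plant cell wall enzymes differ from the rest was not tested.

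**Figure D4:**
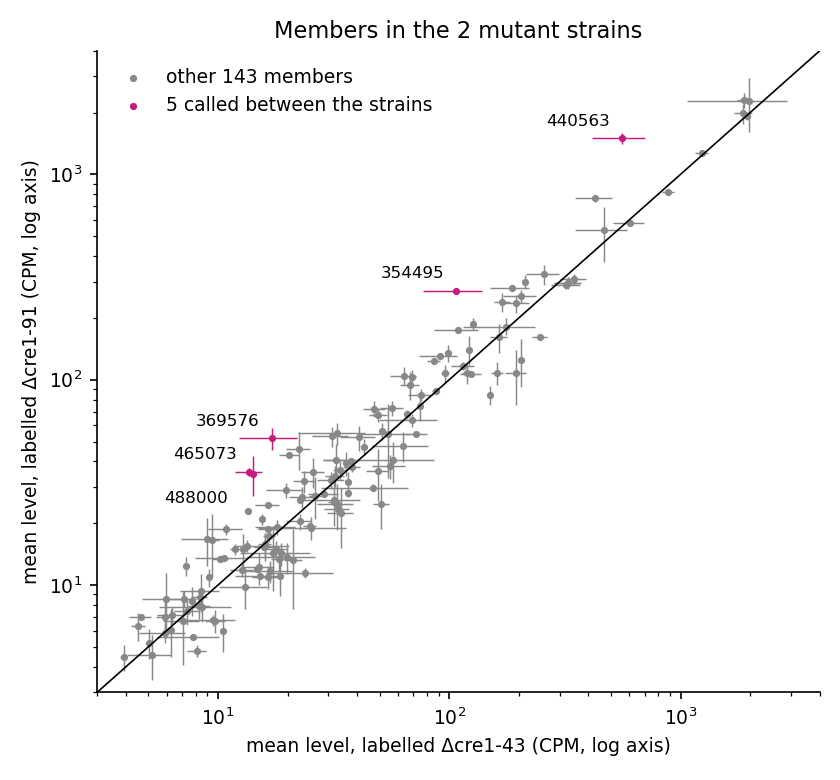
Mean level of each member in the libraries labelled Δcre1-43 (horizontal) and Δcre1-91 (vertical), in CPM on log axes; lines span the 2 libraries of a strain and the diagonal marks equal levels. The 5 members called between the strains lie above the diagonal, and 143 others were not called.

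The member with the smallest p between the strains was 440563, an undescribed gene of 570 coding bases. It had 48.5, 48.8 and 33.4 CPM in the wild type, 416 and 705 CPM under the label Δcre1-43 and 1404 and 1589 CPM under the label Δcre1-91. The difference was -1.42 on the log2 scale (standard error 0.22, edgeR adjusted p = 0.0126, between 2.46e-13 and 0.226 over the alternatives), and both libraries of the second strain lay above both of the first. A similar pattern was seen for 354495, with 25.4, 23.6 and 24.9 CPM, 76.8 and 138 CPM and 274 and 269.7 CPM in the same order. Its difference was -1.34 (standard error 0.22, edgeR adjusted p = 0.0126, between 7.31e-09 and 0.226 over the alternatives).

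The only described gene among the 5 was 369576, with a ricin B lectin domain, a fold that binds sugars. It had 1.66, 2.34 and 3.15 CPM in the wild type, 12.3 and 21.9 CPM under the label Δcre1-43 and 58.4 and 45.5 CPM under the label Δcre1-91, and the largest difference of all members, -1.59 (standard error 0.28, edgeR adjusted p = 0.0171, between 7.31e-09 and 0.251 over the alternatives). A gene model on the other strand overlaps it, and models on both strands overlap 465073, another of the 5. The member 465073 had 3.42, 3.12 and 3.43 CPM, 11.9 and 15.5 CPM and 37.2 and 34.1 CPM in the same order, with a difference of -1.38 (standard error 0.24, edgeR adjusted p = 0.0169, between 2.35e-05 and 0.226). The last, 488000, had 3.05, 2.53 and 2.87 CPM, 13.8 and 14.4 CPM and 27.1 and 42.7 CPM, with a difference of -1.30 (standard error 0.26, edgeR adjusted p = 0.0322, between 1.71e-04 and 0.305). In each of the 5 the level labelled Δcre1-43 was itself at least 3 times every wild-type library.

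The members were scattered over the genome. They lay on 116 scaffolds (assembly Amut1Bmut1 pab1-1 v1.0), and only 4 members stood next to another member, in 2 pairs. On scaffold 103 the GH62 members 400480 (58839 to 60603) and 498983 (60873 to 62361) follow each other on the plus strand. GH62 enzymes are arabinofuranosidases that release arabinose from xylan. The first had 3.23, 2.82 and 3.52 CPM in the wild type, 13.4 and 7.93 CPM under the label Δcre1-43 and 13.5 and 13.7 CPM under the label Δcre1-91. The second had 7.76, 8.59 and 5.19 CPM, 24.7 and 28.0 CPM and 33.5 and 21.0 CPM in the same order, so that both were about 3 to 4 times their wild-type means. On scaffold 49 the chitinase 470416 (118553 to 120506, minus strand) stands head to head with the undescribed 470417 (121684 to 123531, plus strand). The latter had 1.20, 0.974 and 1.11 CPM, 11.9 and 7.10 CPM and 6.35 and 7.16 CPM, from wild-type counts of 13, 10 and 12.

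The gene models of the members were somewhat shorter than those of all genes with the minimum count, with a median coding length of 1047 bases against 1251 and 4 coding exons against 5. Single-exon models made up 10.1% of the members and 6.90% of those genes. For 85 of the 148 members (57.4%) the counted model overlaps another, against 62.4%, and in 59 members the overlap is with the opposite strand, where reads cannot be told apart if strand was not used in counting. A count that was not whole, which can arise where 1 read is shared among several genes, occurred in 101 members (68.2%), against 74.4%. The single-exon members 321179, 327824 and 322567, on scaffolds 53, 255 and 2, had such values in at least 6 libraries. The first 2 of these differed by at most 1.34% in any library and the third from them by at most 18.2%, so they may share the same reads and are not 3 separate measurements. Besides those noted above, named members with an overlap include 437020, 444212 and 417392 on the same strand and 559348 on the opposite strand. No member overlaps another member.

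Gene lists were also drawn by InterPro domain, each holding every gene that matched its domain names. The lists themselves were chosen with earlier results of these data known. Of 60 polysaccharide-active enzymes in the part of the table held, edgeR called 18 higher and 1 lower under the label Δcre1-43 and 15 higher and 2 lower under the label Δcre1-91, with median log2 fold changes of 0.28 and 0.16. Over all 1999 genes with a description there, 91 were called higher and 49 lower in the first strain and 92 and 78 in the second, with medians of -0.01 and -0.01. Of the 60, 6 are members. Among 12 genes with a fungal cellulose-binding domain, all of them also among the 60, 5 and 4 were higher, with medians of 1.45 and 0.85, and 1 is a member.

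Of 37 major facilitator transporters, 4 were called higher and 3 lower under the label Δcre1-43 and 4 and 2 under the label Δcre1-91, with medians of -0.09 and -0.17, and 3 are members. All 8 genes on the list of sugar transporters, which can share genes with that one, held the minimum count. Of these 8, 1 was called higher and 0 lower in each strain, with medians of 0.13 and 0.22, and 1 is a member. Of 46 α/β hydrolases, 8 were higher and 2 lower in the first strain and 9 and 2 in the second, and 2 are members. Peptidases, with 61 genes, had 1 higher and 5 lower in the first strain and 5 and 6 in the second. The 63 DNA-binding transcription factors had 3 higher and 4 lower in each strain. Among 25 chaperones, 1 and 2 were called higher, and 1 is a member, the small heat shock protein 367102.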

How the data were processed

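Quant-Seq 3′ libraries of mycelium were compared, 3 from the wild type and 2 from each strain labelled Δcre1-43 and Δcre1-91. The authors trimmed reads with bbduk, mapped them with STAR 2.6.1a to the assembly Amut1Bmut1 pab1-1 v1.0 and counted them with featureCounts over the coding sequence of each model plus an overhang of up to 400 bases at its 3′ end; edgeR 3.34.0 and limma 3.48.3 are also named in the submitters' processing notes. The deposited estimated counts were not whole in 20.3% of values, and the strand used for counting is not given in the sources used here. The deposited signal table, called CPM here, equals those counts over library sizes scaled by the trimmed mean of M values (TMM); members were chosen on it.

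All 14242 genes and 7 libraries were fitted together in edgeR 4.0.16 (R 4.3.3) on rounded counts with TMM, no filter on low counts, glmQLFTest and Benjamini-Hochberg adjustment over all genes. Calls needed an adjusted p no higher than 0.05 together with a log2 difference of 1 or more either way. The design had assumed whole counts. On simulated counts for the comparison of the mutants, with 200 genes of 14242 planted at 4-fold, edgeR recovered 199 with 20 false calls, limma 3.58.1 voom 159 with 3 and DESeq2 1.42.0 199 with 10. The planted genes all had a mean over 5 CPM. The members' fitted differences ran only from -1.59 to 1.05 on the log2 scale, so this recovery does not give the power for them. Alternatives were voom and DESeq2, other scalings, a filter, fits without rounding, of only the groups compared or with the replicate number as a block, other limits of the rule, and leaving out each library in turn.

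Same-numbered libraries did not deviate together in all groups, with correlations over 9100 genes from -0.21 to 0.15. They were 0.13 and 0.15 between the wild type and Δcre1-43. Between the mutant strains, libraries of unlike number correlated at 0.21. With 2 libraries per strain such values mirror each other, so they do not settle whether libraries were handled together. Members, gene lists and tests were chosen with earlier results of these data known. Named are the 6 members with the highest mutant level, the 6 with the largest ratio, the 3 just inside and the 3 genes just outside the limit, those called between the mutants, up to 5 of each annotated role by ratio, neighbours, and the 3 with the widest relative spread between replicates; 276942, 361504, 197636, 361902 and 455231, and the members 321179, 327824 and 322567 that share counts, were added after their values were seen. Roles come from the study's annotation tables. The study's own fold change and p columns were not used. Intervals were not computed; standard errors cover the spread between these libraries only.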

Additional observations from a re-analysis of the deposited data

Results flagged for a closer look

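The 5 members called by edgeR between the mutant strains all had the higher level under the label Δcre1-91. The differences, Δcre1-43 minus Δcre1-91 on the log2 scale, were -1.34 for 354495, -1.59 for 369576, -1.30 for 488000, -1.42 for 440563 and -1.38 for 465073. In each, both libraries of the second strain lay above both of the first, 2 libraries against 2. Of 16 alternative fits, 10 also called 440563 and 354495, and 9 called each of the other 3. These alternatives include the block with exchanged replicate numbers, which was chosen after seeing the data. The groups of 2 and 3 libraries are too small to test single libraries as outliers.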

How the results depend on the processing

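The number of members, 148, ran from 163 to 206 when a library was left out, and was 140 with unscaled library sizes, 149 with DESeq2 size factors, 113 and 174 with a minimum count of 20 and 5, and 225 with any count above 0. It was 359 at a ratio of 1.5 and 54 at a ratio of 3. With CPM values unchanged, leaving out a library can only keep or raise the number. The rule compares the lowest mutant library with the highest wild-type library. The members called higher than the wild type numbered 140 to 148 under the label Δcre1-43 and 141 to 148 under the label Δcre1-91 over the libraries left out, and at least 146 under every other alternative run. Their median log2 fold change was 2.03 with unscaled library sizes and 1.99 to 2.09 without a library under the first label, and 2.00 and 2.04 to 2.16 under the second. The members were chosen on these same contrasts, so nothing is read from these calls against the wild type or from these medians.

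The members that differed between the mutants numbered 8 where only the groups compared were fitted, 0 with limma voom (34 at an unadjusted p under 0.05), 0 after filterByExpr in edgeR (32 at an unadjusted p under 0.05) and 0 to 8 without a library. Over all genes the count of 35 became 68 with DESeq2, 74 with counts not rounded, 106 with unscaled library sizes, 101 where only the groups compared were fitted, 0 with limma voom (1897 at an unadjusted p under 0.05), 0 after filterByExpr (1408 at an unadjusted p under 0.05) and 0 to 105 without a library; the cause was not tested. Unscaled library sizes moved the median difference of genes with the minimum count by 0.12, and the calls between the mutants were then 93 higher and 13 lower under the label Δcre1-43, against 25 and 10. Of all calls against the wild type under the label Δcre1-91, 59.7% were higher with TMM and 50.2% with unscaled sizes. With the replicate number as a block, 5 members and 53 genes differed between the mutants. With numbers 1 and 2 exchanged in one strain, an alternative chosen after seeing the data, the paired counts were 8 and 161. Of 748 counts of InterPro lists under an alternative, 659 stayed within 1.5 times, 48 were lower and 41 higher. Depth limits members with few wild-type counts most, where a count of 3 was 0.278 to 0.294 CPM.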
